A study of Mus musculus with 6 samples.

Results

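Integrins are the receptors through which cells hold on to their matrix, each a pair of one alpha and one beta chain. Laminins are trimers of one alpha, one beta and one gamma chain that form the sheet of a basement membrane, and nidogens, perlecan (Hspg2), agrin (Agrn) and dystroglycan (Dag1) tie that sheet to collagen IV or to the cell surface. Fibroblasts carry mainly integrins that bind collagen and fibronectin, and they supply part of the basement membrane that surrounds epithelium, vessels and nerves. The members described here are the 18 integrin alpha genes, 8 integrin beta genes, 5 laminin alpha genes, 6 laminin beta and gamma genes and 5 linker genes (Nid1, Nid2, Hspg2, Agrn and Dag1), matched in the table by gene symbol from a family chosen with earlier results of these data known, and together they are 42 of the 27179 genes in the count table.

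Their expression was measured by bulk RNA sequencing in cancer-associated fibroblasts (CAFs) from 3 mammary tumors of female raGFP-Wnt1 mice. These mice carry 1 Pdgfra H2B-GFP knock-in allele, which puts green fluorescent protein in the nuclei of Pdgfra-expressing cells (C57BL/6 background), and the MMTV-Wnt1 transgene, in which a mammary tumor virus promoter drives Wnt1 (FVB/NJ background). GFP-positive cells of each tumor were sorted by flow cytometry, with CD31, CD45 and TER-119 antibodies marking the lineage cells to be left out, into a CD34 negative and a CD34 positive fraction, which gave 3 libraries per group. Libraries are named negative or positive library 1, 2 or 3 after the tumor. Both groups share the reporter, the transgene and the tumor, the labels name no treatment, and the age of the mice was not given in the sources used here. The question is how CAFs without and with CD34, a surface protein of mesenchymal progenitors, differ in these matrix receptors and ligands. In a bulk sample, fewer cells of a type and less RNA per cell cannot be told apart.

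Library totals ran from 35310817 to 59685694 counts in the negative group and from 16238059 to 86609267 in the positive group, and 1.15% to 1.32% of them fell on the members. Cd34 itself fell by 3.60 on the log2 scale with the tumor as a block (adjusted p = 3.61e-05, limma-voom) and Pdgfra, the gene behind the sort, was at 386 and 428 CPM on average. Fibroblast collagens Col1a1 and Col1a2 were the most abundant of the fibroblast markers, at 11718 CPM or more in every library. Dcn averaged 2923 CPM in the negative and 6365 in the positive libraries (log2 fold change -1.12, adjusted p = 0.00154, limma-voom, tumor as a block). Lum averaged 1364 and 2345 CPM (-0.73, adjusted p = 0.0140, same fit). These 2 markers were lower in the negative fraction of 3 of 3 tumors. Col1a1 and Col1a2 were higher in 3 of 3 tumors, and neither they nor Pdgfra were called. Negative library 3 stood apart, with counts for 14314 genes against 16253 to 19220 in the others and with 7 members at 0. CPM is the count of a gene per 1000000 counts of its library, after scaling the library total by a composition factor (TMM). A log2 fold change is positive where the CD34 negative group was higher, errors of fold changes are standard errors, and p-values are adjusted over all 14855 genes that passed the low-count filter.

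With the tumor as a block, CD34 negative CAFs had more of the integrin chains Itgb5 and Itga8 and the proteoglycans Agrn and Hspg2. They also had more of the laminin chains Lama1, Lama2, Lamb2 and Lamc3. The integrin chain Itgb3, the laminin chain Lama4 and both nidogens were lower, while the common chains Itgb1, Itgav, Lamb1 and Lamc1 were not called. Of these calls, those of Hspg2, Lama2, Lama4 and Nid2 were lost in some fit that left out a tumor. Of the 42 members, 37 passed the filter. Without a term for the tumor, limma-voom called none of them at an adjusted p under 0.05, beside 0.121% of all genes, while 17 members (45.9% of those tested) had an unadjusted p under 0.05, beside 14.3% of all genes. edgeR also called 0 members without the tumor term. The numbers pair the libraries, because both fractions of a pair came from one tumor. With the tumor as a block, 11 members were called higher in CD34 negative CAFs (29.7% of those tested, beside 4.32% of all genes) and 5 were called lower (13.5%, beside 4.25%), so that 16 members (43.2%) were called in either direction, beside 8.57% of all genes. The same blocked design called 6 members in edgeR, where 3.87% of all genes were called, and 18 in DESeq2, where 11.7% were called. The 6 members called by all 3 tools, and also after leaving out any one tumor, were Itgb5, Itgb3, Itga8, Lamb2, Lamc3 and Agrn. The median log2 fold change with the block was 0.54 over the tested members and -0.01 over all genes.

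Without any model, 13 members had all 3 negative libraries above all 3 positive libraries, beside 10.4% of all genes, and 4 had them all below, beside 10% of all genes. Within the tumors, 15 members were higher in the negative fraction of 3 of 3 tumors, beside 22.8% of all genes, and 10 were lower in 3 of 3, beside 23.4% of all genes. Taken as unpaired, 3 libraries against 3 cannot give an exact two-sided permutation p below 0.1, and 3 pairs allow no lower value. Single sums and shares below are therefore described without a test.

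**Figure D1:**
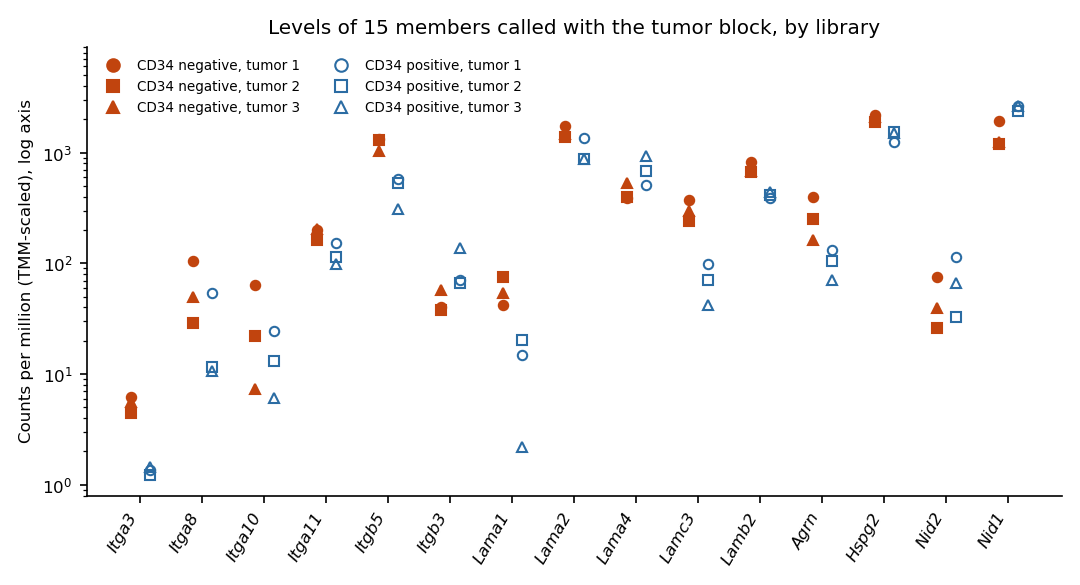
Levels in CPM (log axis) of 15 of the 16 members called with the tumor as a block, ordered by role and then by fold change. Filled symbols are CD34 negative and open symbols CD34 positive libraries, and the symbol shape gives the tumor. The groups are fully apart for genes such as Itgb5 and Lamc3, whereas for Itga8, Itga10 and Nid2 the tumors differ so much that the groups overlap while every pair keeps its direction.

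Sequence upstream of the start site is shown for one called member in each direction, as a reference for where each gene begins. Itgb5 was the member with the smallest adjusted p among those with an entry at the start of the gene in the RefSeq promoter table (GRCm38.p6), and Nid1 was the only member called lower with an entry at all. The 120 bases before the start site are given 5′ to 3′ on the strand of the gene, at chr16:33829545-33829664 (plus strand) for Itgb5 and chr13:13437482-13437601 (plus strand) for Nid1. Capitals mark matches on either strand to GGGCGG, the core of the SP1 GC box, or to CCAAT.
Itgb5: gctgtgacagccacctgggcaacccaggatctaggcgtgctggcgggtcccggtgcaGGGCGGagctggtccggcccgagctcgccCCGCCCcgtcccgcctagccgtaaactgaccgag
Nid1: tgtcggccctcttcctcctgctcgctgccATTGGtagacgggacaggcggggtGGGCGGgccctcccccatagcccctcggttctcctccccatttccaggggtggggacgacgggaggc
The table held an entry for 27 of the 42 members. Over the 250 bases before the start, GGGCGG or its complement stood in 4 of 9 promoters of members called higher, in the Nid1 promoter and in 12 of 27 member promoters, and in 32.4% of all 27025 promoters. CCAAT stood in 6 of the 27, and in 34.1% of all promoters. Of the other motifs searched on both strands, the TEAD site GGAATG stood in 4 of the 27 (12.7% of all promoters), the CAGA box CAGACA in 5 (17.2%), the AP-1 site TGANTCA in 1 (6.87%), and the E-box CACGTG (5.89%) and the TATA box TATAAA (13%) in none. No motif searched contains another, and a match is only a run of letters.

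Among the integrin beta chains, Itgb5 was higher in CD34 negative CAFs, Itgb3 was lower, and Itgb1 showed no difference past the test. Itgb5 (chr16:33829665-33949338) encodes the beta5 chain, which pairs with alphav to bind vitronectin and to take part in release of TGF-beta from its latent complex. It was at 1332, 1301 and 1041 CPM in negative libraries 1, 2 and 3, against 572, 536 and 307 in positive libraries 1, 2 and 3. Every negative library was above every positive one, and the log2 fold change with the block was 1.42 ± 0.14 (adjusted p = 0.000851, limma-voom; 0.0858 without the block). Itgb3 (chr11:104608000-104670476), the beta3 chain and the other well-known partner of alphav, was at 40.0, 37.8 and 57.4 CPM in the negative libraries, against 71.2, 67.1 and 138 in the positive libraries. Here the groups were apart in the opposite direction, with a log2 fold change of -0.99 ± 0.15 (adjusted p = 0.00505 in limma-voom with the block, 0.196 without it). On the RPKM scale, which divides CPM by gene length in kilobases, the Itgb5 level was 58.6, 60.7 and 32.0 times the Itgb3 level in the negative libraries and 14.2, 14.1 and 3.93 times in the positive libraries. Beta5 was thus the more abundant message of this pair in all 6 libraries, by a margin that differed between the groups without overlap.

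The common beta1 chain, Itgb1, which pairs with most alpha chains that bind collagen, fibronectin and laminin, was at 1073, 1550 and 1425 CPM in the negative libraries and at 1145, 1385 and 1067 in the positive libraries. These ranges overlapped, and the log2 fold change with the block was 0.16, with a 95% interval from -0.15 to 0.47. Per length, Itgb5 was at 1.59, 1.07 and 0.934 times the Itgb1 level in the negative libraries and at 0.639, 0.495 and 0.368 times in the positive libraries. The beta5 message was thus close to or above the beta1 message in the negative libraries and below it in the positive ones. As a share of the summed RPKM of all 8 beta chains, Itgb5 held 53.0% ± 6.8 (SD, n = 3) in CD34 negative and 31.7% ± 6.4 in CD34 positive CAFs, and Itgb1 held 45.5% ± 6.6 and 64.2% ± 4.5. The sum itself was 705 ± 60 RPKM against 447 ± 67, with no overlap between the groups. The other beta chains were scarce: Itgb8, Itgb7, Itgb4, Itgb2 and Itgb6 had mean levels of 0.0983 to 0.624 RPKM, and none was called with or without the block.

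Of the 4 alpha chains called higher with the block, Itga11 and Itga10 bind collagen, Itga8 binds nephronectin and Itga3 binds laminin. Itga11, the alpha chain of the main fibrillar collagen receptor of fibroblasts, was at 201, 161 and 205 CPM in the negative libraries, against 153, 114 and 99.1 in the positive libraries. All 3 negative libraries were above all 3 positive libraries, although the gap between 161 and 153 was small, and the log2 fold change with the block was 0.65 ± 0.15 (adjusted p = 0.0311, limma-voom; 0.220 without the block). Without tumor 3 the adjusted p of Itga11 with the block was 0.0535. Itga10, another collagen-binding chain best known from cartilage, was at 63.7, 21.9 and 7.40 CPM in the negative libraries and at 24.6, 13.0 and 6.07 in the positive libraries. It differed more between tumors than between fractions, and within each tumor the negative library was higher, by 1.37, 0.75 and 0.28 on the log2 scale in tumors 1, 2 and 3 (0.94 ± 0.23 with the block, adjusted p = 0.0353, limma-voom). The call was lost without tumor 1 (adjusted p = 0.299) and without tumor 2 (adjusted p = 0.0680). Itga1, the collagen IV-binding alpha1 chain, was at 85.2, 92.9 and 113 CPM against 78.4, 49.6 and 26.8. Its groups did not overlap, but the within-tumor log2 ratio ranged from 0.12 in tumor 1 to 2.08 in tumor 3, and the call was missed with the block (1.03 ± 0.28, adjusted p = 0.0561, limma-voom), while it was made with the block without tumor 1 (adjusted p = 0.000427) and without tumor 2 (adjusted p = 0.00125). The span of Itga1 also holds the gene Pelo, which had 2327 counts over the 6 libraries beside 19352 for Itga1. Itga2, the fourth collagen-binding chain, lay the other way at a low level, with 1.23 to 2.50 CPM in the negative and 2.68 to 6.21 in the positive libraries (log2 fold change with the block -1.38 ± 0.50, adjusted p = 0.137, limma-voom).

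Itga8, the alpha8 chain that binds nephronectin and is known from mesenchyme and smooth muscle, was at 105, 28.7 and 50.0 CPM in the negative libraries and at 53.5, 11.6 and 10.6 in the positive libraries. Tumor 1 was highest in both fractions, so the groups overlapped, but the negative library of each pair was higher by 0.98, 1.31 and 2.24 on the log2 scale (1.40 ± 0.23 with the block, adjusted p = 0.00724, limma-voom; 0.229 without the block). Itga3, a laminin-binding chain of epithelium, was low in all libraries, at 6.16, 4.43 and 5.61 CPM against 1.36, 1.23 and 1.45. The groups were apart by 1.93 ± 0.51 with the block (adjusted p = 0.0475, limma-voom), a call that was lost without tumor 1 (adjusted p = 0.232) and without tumor 2 (adjusted p = 0.459). Epithelial marker genes, of which 0 of 7 were called, summed to 168, 147 and 58.9 CPM in the negative and to 144, 100.4 and 20.6 CPM in the positive libraries. Of these 7 markers, 6 were higher in the negative fraction of 3 of 3 tumors, beside 22.8% of all genes, and Krt14 was lower in tumor 1. Their median log2 fold change with the block was 0.62, beside -0.01 over all genes. Their part in the low levels of the epithelial chains Itga3 and Itga6, and in those of Lama3, Lama5 and Lamb3, was not tested.

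Itgav and Itga5 were not called in either direction with all 3 tumors. Itgav, the partner of Itgb5 and Itgb3, was at 177, 183 and 165 CPM in the negative libraries and at 189, 176 and 153 in the positive libraries. These values lay close together in all 6 libraries, and the log2 fold change of 0.03 with the block had a 95% interval from -0.25 to 0.30. Itga5, the alpha chain of the classical fibronectin receptor and the alpha chain with the highest level per length (mean 74.9 RPKM), was at 264, 366 and 195 CPM against 279, 423 and 434. Its groups overlapped, and most of the difference of -0.48 ± 0.20 with the block (adjusted p = 0.178, limma-voom) came from the tumor 3 pair, where the log2 ratio was -1.15 beside -0.08 and -0.21 in the other pairs. Itga5 was called lower with the block when tumor 1 was left out (adjusted p = 0.0391). Itga6, a laminin-binding chain, was at 6.52, 7.48 and 7.18 CPM against 10.9, 3.11 and 5.43, with a log2 fold change with the block of 0.44 and a 95% interval from -0.49 to 1.36. The sums of all 18 alpha chains were 177 ± 16 RPKM in CD34 negative and 169 ± 6.4 RPKM in CD34 positive CAFs and overlapped, unlike the beta chain sums.

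The remaining alpha chains were not called. Itga9, the tenascin-binding alpha9 chain, and Itga7, a laminin-binding chain of muscle, had log2 fold changes with the block of 0.35 ± 0.19 and 0.72 ± 0.39. Itga2b, the platelet chain that pairs with beta3, was at 7.85, 3.59 and 8.39 CPM against 7.74, 12.7 and 23.8, with -1.25 ± 0.35 on the log2 scale (adjusted p = 0.0600, limma-voom with the block; 0.0214 without tumor 1). The platelet genes Pf4, Ppbp and Gp9 were each under 1 CPM in all 6 libraries, and the 4 platelet markers together summed to 2.01 to 11.3 CPM. Most of that sum was Gp1bb, at 10.8, 9.01 and 3.88 CPM against 9.78, 3.46 and 2.01. Gp1bb lay the other way from Itga2b, higher in the negative fraction of 3 of 3 tumors, and was not called (0.90 ± 0.37, adjusted p = 0.179, limma-voom with the block). Leukocyte integrin chains were low: Itgax, Itgam, Itgal, Itgae and Itgad failed the filter with 0 to 59 counts in any library, and Itga4, Itgb2 and Itgb7 stayed at or below 4.37 CPM. The leukocyte markers summed to 4.70 to 17.0 CPM over all libraries, and 0 of 7 tested were called. In negative library 3 a count of 0, as seen for Itgb2, Itgb6, Itga4 and 4 untested alpha chains, allows a level of up to 0.0825 CPM, for counting error only.

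**Figure D2:**
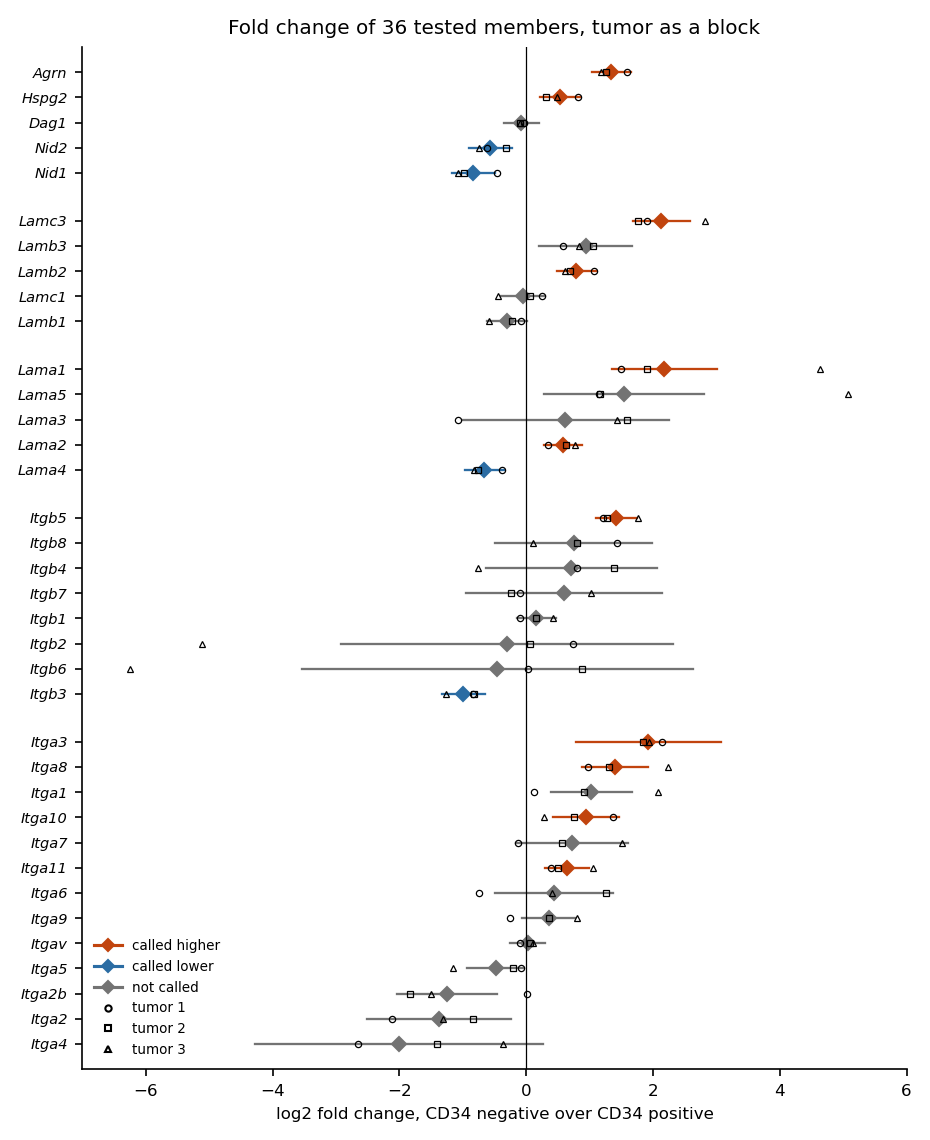
Log2 fold change of CD34 negative over CD34 positive CAFs for 36 of the 37 tested members, with the tumor as a block. Diamonds and lines give the estimate and its 95% interval, coloured by call, and open symbols give the log2 ratio within each tumor. Groups from the bottom are integrin alpha, integrin beta, laminin alpha, laminin beta and gamma, and linker genes, and every group holds calls in the higher direction.

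Laminin messages differed in which chains made them up more than in their total. The sum of the 5 alpha chains was 238 ± 18 RPKM in CD34 negative and 227 ± 20 RPKM in CD34 positive CAFs, that of the 3 beta chains 293 ± 40 and 274 ± 14, and that of the 3 gamma chains 224 ± 16 and 201 ± 34, and each of these sums overlapped between the groups. Within each class the make-up was different. Lama2, the alpha2 chain of muscle and Schwann cell basement membranes, was at 1737, 1372 and 1489 CPM in the negative libraries, against 1366, 885 and 876 in the positive libraries. The highest positive library came close to the lowest negative one, and the log2 fold change with the block was 0.58 ± 0.13 (adjusted p = 0.0272, limma-voom; 0.342 without the block). Lama4, the alpha4 chain of vessel basement membranes and other mesenchyme, was at 393, 401 and 527 CPM against 514, 682 and 937. The groups overlapped through tumor 3 of one and tumor 1 of the other, while each tumor had less Lama4 in the negative fraction (-0.66 ± 0.14 with the block, adjusted p = 0.0174, limma-voom). Both calls were lost with the block when tumor 2 was left out. The Lama2 level per length was 2.75, 2.13 and 1.76 times the Lama4 level in the negative libraries and 1.66, 0.808 and 0.582 times in the positive libraries, so that Lama2 led in 4 of the 6 libraries and Lama4 in positive libraries 2 and 3. Lama2 held 66.3% ± 4.9 of the alpha chain sum in CD34 negative and 47.5% ± 13 in CD34 positive CAFs, and Lama4 held 30.7% ± 4.6 and 51.7% ± 13.

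Lama1, the alpha1 chain of early embryonic basement membranes, was a minor chain with a large relative difference, at 42.3, 76.1 and 54.5 CPM in the negative libraries and 14.9, 20.4 and 2.19 in the positive libraries. All negative libraries were above all positive ones, by 2.18 ± 0.37 on the log2 scale with the block (adjusted p = 0.00792, limma-voom; 0.157 without the block), and by 1.78 without tumor 3, the pair with the widest gap. Lama5, the alpha5 chain of most adult epithelial and vessel basement membranes, was at 8.85, 7.57 and 8.88 CPM against 3.96, 3.36 and 0.247. Its groups were apart, yet it was not called with the block (1.54 ± 0.56, adjusted p = 0.133, limma-voom) unless tumor 3 was left out (1.15, adjusted p = 0.0233). Lama3, an epithelial chain, was at 0.282 to 4.39 CPM and was not called.

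The gamma3 chain gave the smallest adjusted p of all members in either fit. Lamc3 (chr2:31887281-31949083) encodes a gamma chain with a narrower distribution than the common gamma1, and it was at 372, 241 and 298 CPM in the negative libraries, against 99.7, 70.8 and 42.2 in the positive libraries. The lowest negative library was far above the highest positive library, and the log2 fold change was 2.13 ± 0.20 with the block (adjusted p = 0.000553, limma-voom; 0.0547 without the block). Lamc1, the gamma1 chain found in most laminins, was at 1321, 1331 and 1196 CPM against 1113, 1279 and 1635, with a log2 fold change with the block of -0.05 and a 95% interval from -0.40 to 0.30. Lamc1 was 2.77, 4.31 and 3.12 times as high per length as Lamc3 in the negative libraries and 8.69, 14.1 and 30.1 times in the positive libraries. Lamc3 thereby held 22.7% ± 4.0 of the gamma chain sum in CD34 negative and 6.32% ± 3.4 in CD34 positive CAFs. Lamb3, an epithelial beta chain, was at 5.34, 10.2 and 5.83 CPM against 3.53, 4.93 and 3.28 (0.94 ± 0.32, adjusted p = 0.117, limma-voom with the block).

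Of the main beta chains, Lamb2 was higher and Lamb1 was not called. Lamb2 (chr9:108479847-108490530), the beta2 chain of synaptic, vessel and kidney basement membranes, was at 826, 666 and 677 CPM in the negative libraries, against 393, 414 and 443 in the positive libraries. The groups were well apart and each was narrow, and the log2 fold change with the block was 0.79 ± 0.14 (adjusted p = 0.00853, limma-voom; 0.107 without the block). Lamb1, the more widespread beta1 chain, was at 1099, 916 and 804 CPM against 1165, 1075 and 1213, overlapping between the groups (-0.30 ± 0.14 with the block, adjusted p = 0.229, limma-voom). Lamb2 held 44.0% ± 2.0 of the beta chain sum in CD34 negative and 27.0% ± 1.3 in CD34 positive CAFs, the tightest of the shares given with an SD here. Its difference within a tumor was 17.7, 14.1 and 18.9 percentage points.

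**Figure D3:**
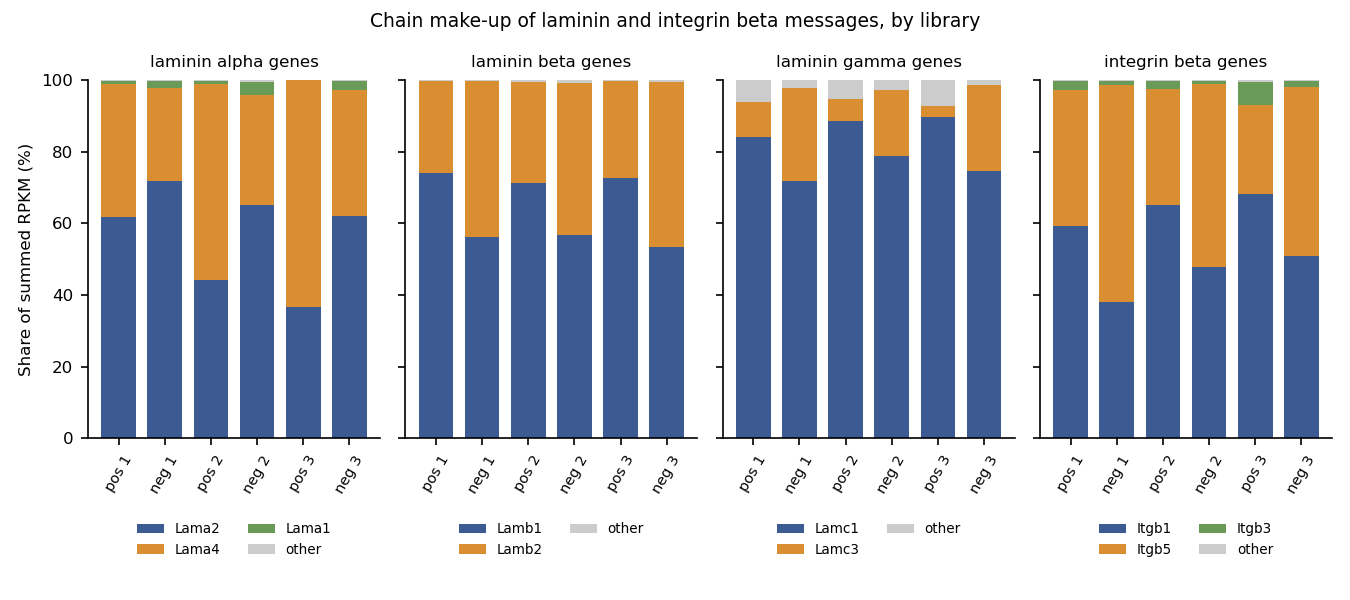
Share of the summed RPKM (%) of each chain class by library, with the CD34 positive (pos) and CD34 negative (neg) library of a tumor side by side. In each tumor the negative library has more Lama2, Lamb2, Lamc3 and Itgb5 and less Lama4, Lamb1, Lamc1 and Itgb1 as a share of its class.

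Linker genes moved in both directions. Nid1 (chr13:13437602-13512275), the nidogen that bridges laminin gamma1 and collagen IV, was at 1926, 1208 and 1247 CPM in the negative libraries, against 2638, 2370 and 2624 in the positive libraries. It was lower in all negative libraries, with -0.83 ± 0.15 on the log2 scale with the block (adjusted p = 0.0108, limma-voom; 0.165 without the block). Nid2, the second nidogen, was at 74.8, 26.2 and 39.9 CPM against 115, 32.5 and 67.0, and tumor 1 was highest in both fractions. Its call with the block (-0.56 ± 0.15, adjusted p = 0.0479, limma-voom) was lost when any one tumor was left out, and 386 bases of its span are shared with Rtraf, a gene with 21053 counts beside 13367 for Nid2. The nidogen sum was 251 ± 72 RPKM in CD34 negative and 435 ± 32 RPKM in CD34 positive CAFs, without overlap, and Nid1 held 94.9% to 98.3% of it in every library.

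Agrn (chr4:156165290-156197533), the proteoglycan that clusters receptors at the nerve-muscle synapse and binds laminin and dystroglycan, was at 394, 251 and 161 CPM in the negative libraries, against 131, 104 and 71.3 in the positive libraries. Tumor 1 was highest and tumor 3 lowest in both fractions, every negative library was above every positive one, and the log2 fold change with the block was 1.34 ± 0.14 (adjusted p = 0.000851, limma-voom; 0.145 without the block). Hspg2, the large proteoglycan perlecan, was at 2174, 1894 and 2111 CPM against 1238, 1531 and 1512. Its groups were apart by a smaller ratio (0.54 ± 0.14 with the block, adjusted p = 0.0453, limma-voom), and the call was lost without tumor 1 (adjusted p = 0.182) and without tumor 2 (adjusted p = 0.119). Per length, Hspg2 was at 0.481, 0.669 and 0.722 times the Nid1 level in the negative libraries and at 0.200, 0.276 and 0.246 times in the positive libraries. Dag1, the dystroglycan that anchors cells to laminin, agrin and perlecan, was at 190, 182 and 197 CPM against 194, 194 and 211, the narrowest spread of the linkers, with a log2 fold change of -0.07 with the block and a 95% interval from -0.34 to 0.20.

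Levels between genes can be set side by side per length. Over the 6 libraries the highest mean levels were those of Nid1 (331 RPKM), Itgb1 (304), Itgb5 (258), Lamb1 (181) and Lamc1 (172), followed by Lama2 (133), Hspg2 (123), Lamb2 (101) and Lama4 (95.2). Itgb5 was at 373 RPKM in CD34 negative and 144 RPKM in CD34 positive CAFs on average, against 322 and 286 for Itgb1. The alpha chains lay lower, with Itga5 at 74.9, Itga11 at 31.5, Itgav at 24.7 and Itga1 at 12.4 RPKM.

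Genes that work next to the members were read from lists of 5 kinds, of which 84 genes were tested. None was called without the block in limma-voom or edgeR, and 21 were called with it, 18 higher and 3 lower. Over all genes, limma-voom with the block called 4.32% higher and 4.25% lower. Among 27 genes of the adhesion machinery inside the cell, 4 were higher with the block and none was lower: the scaffold Tns3 (log2 fold change 1.72 ± 0.33), the p130Cas adaptor Bcar1 (0.86 ± 0.16), the actin crosslinker Actn4 (0.58 ± 0.13) and the integrin activator Tln1 (0.51 ± 0.13). The kindlin Fermt2 and the adaptor Vcl, in contrast, had values of 0.01 ± 0.12 and 0.07 ± 0.12 and were not called. Among 17 tested other basement membrane genes, 6 were higher, namely Egflam, which encodes the dystroglycan ligand pikachurin (1.66 ± 0.21), the calcium-binding matrix protein Smoc2 (1.31 ± 0.25), the collagen IV chain Col4a2 (0.81 ± 0.14), the fibulin Fbln1 (0.79 ± 0.13), the netrin Ntn4 (0.74 ± 0.18) and the basement membrane zone collagen Col15a1 (0.68 ± 0.12). Pxdn, the peroxidase that crosslinks collagen IV, was the 1 gene of that list called lower (-0.55 ± 0.14). The median log2 fold change with the block was 0.20 for the adhesion list and 0.26 for the basement membrane list, beside -0.01 for all genes.

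Of 20 tested genes of the dystroglycan complex, only the dystrophin gene Dmd was called (0.90 ± 0.21, higher), beside 8.57% of all genes called in either direction. The median over the list was 0.15. Of 11 integrin ligands and partners, the alphav integrin ligand Mfge8 (1.42 ± 0.15) and the tetraspanins Cd82 (1.04 ± 0.19) and Tspan4 (0.89 ± 0.18) were higher, and fibronectin, Fn1, was lower, at 8771 ± 1472 CPM (SD, n = 3) against 15979 ± 5875 (-0.80 ± 0.17). Vitronectin, Vtn, was low at 0.797 to 7.12 CPM over all libraries and was not called (-0.50 ± 0.54). Of 9 genes of latent TGF-beta, which alphav integrins help to release, 4 were higher and 1 lower. Tgfb1 was at 89.3 ± 17 CPM against 32.1 ± 11 (1.45 ± 0.17), the docking protein Lrrc32 at 248 ± 33 against 137 ± 30 (0.86 ± 0.13), and the latent binding proteins Ltbp2 and Ltbp3 had 2.21 ± 0.49 and 0.62 ± 0.12, whereas Ltbp1 had -2.04 ± 0.15. The largest adjusted p among the genes named as called in these lists was 0.0422, for Pxdn (limma-voom with the block), and the median was 0.06 for the partners and 0.62 for the latent TGF-beta list.

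**Figure D4:**
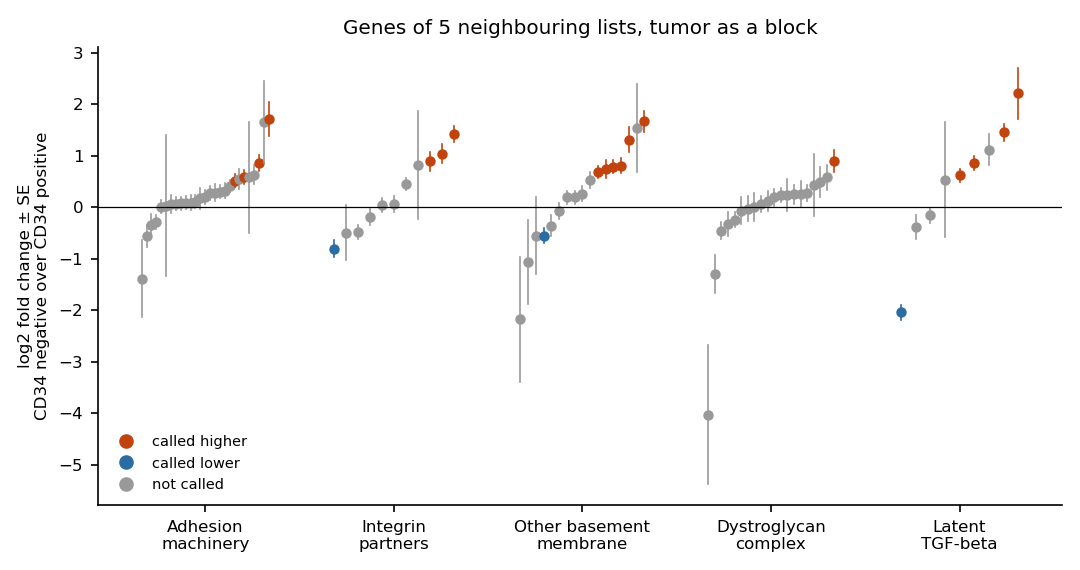
Log2 fold change ± SE with the tumor as a block for the tested genes of 5 neighbouring lists, ordered by value within a list and coloured by call. Each list holds genes on both sides of 0, and Ltbp1 and Fn1 are called lower in the lists where Tgfb1 and Mfge8 are called higher.

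Markers of other cells that could make these genes moved in part with the groups. The pericyte markers Mcam (39.3 ± 5.7 CPM against 9.65 ± 6.3), Cspg4 (101 ± 24 against 31.5 ± 16) and Notch3 (54.5 ± 2.3 against 20.3 ± 11) were called higher with the block and Abcc9 and Kcnj8 were called lower, while Rgs5 was at 4.08, 3.72 and 10.7 CPM in the negative and 1.18, 1.03 and 0.247 CPM in the positive libraries, without overlap and higher in 3 of 3 tumors, but was not called (2.60 ± 0.79 with the block, adjusted p = 0.0803, limma-voom). The 6 pericyte markers summed to 211 to 236 CPM in the negative and 86.8 to 188 CPM in the positive libraries, and their part in the differences of Itga1, Itga8 and Lamc3 was not tested. Endothelial markers summed to 11.4 to 32.3 CPM in the negative and 56.7 to 123 CPM in the positive libraries, largely through Tek, an angiopoietin receptor (8.46 ± 4.3 against 76.7 ± 35, called lower with the block), and Cdh5 and Vwf stayed at or below 4.29 CPM in all libraries. Those 2 lay the other way, higher in the negative fraction of 3 of 3 tumors, and were not called (1.45 ± 0.81 and 1.38 ± 0.72 with the block). The markers Kdr, lower in 3 of 3 tumors, and Pecam1, lower in tumors 1 and 3, were not called either (-1.01 ± 0.40 and -0.61 ± 0.49 with the block). The part of endothelial markers in the lower Lama4, Nid1 and Nid2 was not tested. The Schwann cell markers summed to 5.82 to 16.3 CPM, with 0 of 3 tested called. The muscle markers summed to 2.97, 5.004 and 13.3 CPM in the negative and 1.86, 1.52 and 1.59 CPM in the positive libraries, without overlap. Most of the negative sums came from Des, the intermediate filament desmin, at 2.85, 4.63 and 13.1 CPM against 0.743, 1.39 and 1.20. Des was called higher with the block (log2 fold change 2.32 ± 0.57, adjusted p = 0.0362, limma-voom). The other muscle markers did not rise with Des. Acta1 averaged 0.220 CPM in the negative and 0.544 CPM in the positive libraries and was not called (-0.86 ± 1.38 with the block). Myf5 had 0 counts in every library, and Myog stayed at or below 0.0443 CPM. The part of the muscle markers in the higher Lama2, which was at 876 CPM or more in every library, was not tested.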

How the data were processed

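RNA was sequenced from TruSeq RNA v2 libraries on an Illumina NextSeq, with polyA RNA named in the labels. Reads were mapped to GRCm38/mm10 by the authors and summed per NCBI gene by Rsubread (featureCounts in the submitters' processing notes). The deposited values are raw counts, not normalized and not pooled. How strand and multiply matching reads were treated was not given in the sources used here, so overlapping genes carry an uncertainty.

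From these counts, filterByExpr (minimum count 10) kept 14855 genes, which were scaled by TMM and tested with limma-voom. P-values were two-sided and adjusted by Benjamini and Hochberg's method over all of them, with 0.05 as the limit. Tools were limma 3.58.1, edgeR 4.0.16 and DESeq2 1.42.0 in R 4.3.3. The design followed the study's methods, which state no tumor term. Tumor numbers in the titles pair the libraries, and deviations from the group means correlated at 0.373, 0.350 and 0.219 in tumors 1, 2 and 3, so values from a blocked fit stand beside the others. RPKM is TMM-scaled CPM divided by the deposited gene length. Positions and promoters come from RefSeq GRCm38.p6. On simulated data of 14309 genes, of which 200 changed by 2 on the log2 scale, limma-voom found 74 and made 0 false calls, while the blocked fit found 149 and made 5. Blocked edgeR found 152 and made 3. The simulation kept the differences between tumors and changed only well-expressed genes, by more than most members changed. It therefore cannot show which fit suits the members. Values in every library are given for members called in either fit, the 2 with the highest RPKM in each role group, and a fixed set. List genes called in the blocked fit are named, up to 6 per list. The members and lists were chosen with earlier results of these data known, and the alternatives are given in the closing section. Counts, medians and sums include 1 member whose own values are not reported here.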

Additional observations from a re-analysis of the deposited data

How the results depend on the processing

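Without the block, the count of members called was 0 with RLE size factors, with edgeR and with annotated genes only, 1 with library totals alone and 1 with no low-count filter (Lamc3 in each), 2 with sample quality weights, 9 with DESeq2 and 9 with the tumor as a random effect. Leaving out 1 library gave 0 to 1 members, the 1 being Lamc3 without positive library 1. With the replicate block it was 16 (6 in edgeR, 18 in DESeq2, 14 with library totals and 16 with RLE factors, the last 2 chosen after seeing the data), and 15, 11 and 15 without tumors 1, 2 and 3, of which 12, 10 and 14 were among the 16. Genes called in the neighbouring lists numbered 0 without the block, 2 with quality weights, 8 with DESeq2 and 12 with the random effect. They numbered 21 with the block (8 in edgeR, 28 in DESeq2, 19 with library totals, 21 with RLE factors, and 24, 16 and 27 without tumors 1, 2 and 3). Over all genes, limma-voom called 0.121% without the block and 8.57% with it, and the blocked edgeR and DESeq2 fits called 3.87% and 11.7%. In the other settings the share over all genes is not given. Their counts alone therefore do not set the members or lists apart from other genes. The shares of Lama2, Lama4, Lamb2, Lamc3, Itgb1 and Itgb5 and the sums of integrin beta, integrin alpha, laminin alpha, laminin gamma and nidogen genes kept their direction on the CPM scale and without any one library, with the log2 ratio of the laminin alpha sum at 0.07 per length and 0.21 on the CPM scale. The laminin beta sum did not: its log2 ratio ran from -0.0203 (without negative library 1) to 0.17. Nor did the Nid1 share of the nidogen sum, whose difference of -0.39 percentage points ran from -1.30 to 0.42, turning without negative library 1 or positive library 2. Log2 fold changes of 10 members changed sign in some setting. Without 1 library they ran from -2.68 to 0.0756 for Itga4, -0.0184 to 0.95 for Itga6, -0.0705 to 0.62 for Itga9, -0.0642 to 0.10 for Itgav, -2.37 to 0.26 for Itgb2, -2.38 to 0.16 for Itgb6, -0.70 to 0.75 for Itgb7 and -0.19 to 0.11 for Lamc1. With quality weights they were 0.0052 for Itgb2 and -0.60 for Itgb7. With the block and without tumor 2 they were -0.20 for Itga6, -0.0011 for Itgav, -0.0071 for Itgb4 and -0.63 for Lama3, and without tumor 3 they were -0.0323 for Itgav, 0.25 for Itgb2, 0.59 for Itgb6, -0.20 for Itgb7 and 0.14 for Lamc1. None of these 10 members was called in any of these settings. DESeq2 with the block found 191 of the 200 changed genes on simulated data and made 108 false calls, beside 5 in limma-voom and 3 in edgeR. Its larger counts are therefore read with care, but the simulation cannot tell how many of its calls on the members are false. With 3 pairs, and with library totals between 16238059 and 86609267 counts, members under about 1 CPM cannot be compared.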
